A study of Mus musculus with 8 samples.

Results

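Yoda1, a chemical agonist of the mechanosensitive cation channel Piezo1, was tested on cultured murine lung group 2 innate lymphoid cells (ILC2s), and the messenger RNAs (mRNAs) of 10 proteins that decide how long cytokine mRNAs last were followed in these cells. The 10 genes were taken by symbol from the deposited read counts and not by their values, with earlier results of these data known. They are Zfp36, Zfp36l1, Zfp36l2, Zc3h12a, Rc3h1, Rc3h2, Elavl1, Khsrp, Hnrnpd and Arid5a. All 10 were found among the 23183 genes listed, and all 10 had enough counts to enter the 12239 genes tested. Poly(A)-selected RNA was sequenced from 4 samples treated with 5 µM Yoda1 and 4 samples treated with 0.1% DMSO, the vehicle, for 3 h. Both groups were ILC2s of wild-type C57BL/6 mice (C57BL/6 J in the study's methods) that the study describes as 6 to 10 weeks old and of both sexes, which were given recombinant IL-33 before the lung cells were enriched. Both groups were kept in culture with IL-2, IL-7 and IL-33, so the DMSO samples were cytokine-treated cells too. Neither the labels nor the study's methods tell if samples within a group are separate mice or separate cultures, so the p-values measure only the spread between these samples, which may be technical.

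The libraries held 12438009 to 19534653 counts, and the scaling factors lay between 0.988 and 1.01. Levels are given in CPM, that is, counts brought to the same total in every library, and fold changes as Yoda1 over DMSO on the log2 scale. Changes were called where the Benjamini-Hochberg adjusted p of the quasi-likelihood test of edgeR was under 0.05, with the adjustment over every gene tested. This rule called 10.9% of the genes tested, 6.04% higher and 4.84% lower. The split between 739 higher and 592 lower genes moved to 505 and 958 when upper-quartile factors scaled the libraries, which shifted the median of all genes from -0.0053 to -0.036. The ILC2 marker genes summed to 16949 to 17569 CPM with DMSO and 19216 to 19605 CPM with Yoda1. Of the 13 genes in this list, 6 were called higher, 1 (Icos) was called lower and 6 were not called. Il13 alone went from a mean of 5427 to 6662 CPM, while Gata3 averaged 565 CPM in both groups. The B cell, ILC3 and macrophage or dendritic cell marker lists summed to at most 11.97 CPM in any library, and the T cell list to at most 86.0 CPM. The mast cell and basophil list reached 89.2 CPM, nearly all of it Kit, and the epithelial and stromal list 217 to 230 CPM, nearly all of it Pecam1, with no count of Sftpc. Pax5 and Marco had no count in any library.

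Cytokine mRNAs carry decay signals in their 3′ untranslated regions (UTRs). AU-rich elements are read by the tristetraprolin family (Zfp36, Zfp36l1 and Zfp36l2), which recruits the CCR4-NOT deadenylase, by the decay factors KSRP (Khsrp) and AUF1 (Hnrnpd), and by the stabilizing protein HuR (Elavl1). Short stem-loops are read by the endoribonuclease Regnase-1 (Zc3h12a) and by Roquin-1 and Roquin-2 (Rc3h1 and Rc3h2), and Arid5a binds stem-loops of the same kind and shields mRNAs such as Il6 from Regnase-1. In lymphocytes, these proteins limit or prolong the output of an activation signal after the gene has been transcribed.

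Several of these regulators carry such signals in their own mRNAs. The 9-base element TTATTTATT was searched on the transcript strand of annotated 3′ UTRs (GENCODE M21, GRCm38) and was found in 6 of the 10 regulators, against 9.01% of the 11328 tested genes with an annotated 3′ UTR. The element contains the shorter ATTTA, which was found in all 10 regulators and in 71.6% of the tested genes. The 9-base element is shown in capitals, DNA letters, 5′ to 3′, with its flanks, because it is the sequence that the members of the tristetraprolin family recognize and because all 3 family members carry 1 copy of it.
Zfp36, chr7:28376953-28376977, minus strand: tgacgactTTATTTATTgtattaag
Zfp36l1, chr12:80108169-80108193, minus strand: ctgttggaTTATTTATTttagaaat
Zfp36l2, chr17:84184916-84184940, minus strand: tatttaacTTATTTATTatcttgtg
Rc3h1, chr1:160970045-160970069, plus strand: tttactcaTTATTTATTgagatgag
Rc3h2, chr2:37373289-37373313, minus strand: aagacattTTATTTATTttactctg
Elavl1, 1 of 8 copies, chr8:4285782-4285806, minus strand: ttatttatTTATTTATTtattttta

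Of the 8 Elavl1 copies, 7 overlap a neighbour and 1 (base 3816) stands apart, and all 8 start between bases 3794 and 3840 after the stop codon of a 3′ UTR of 4218 bases. Long 3′ UTRs hold the element more often. With the genes put in 4 classes of near-equal size by 3′ UTR length, it was found in 5.22% of the second class (545 to 1265 bases, where Zfp36 lies at 774), 9.23% of the third (where Zfp36l1 lies at 1835 and Zfp36l2 at 1822) and 19.4% of the class of the longest (Rc3h1, Rc3h2 and Elavl1). Zc3h12a, Khsrp, Hnrnpd and Arid5a had no match to the 9 bases in these windows.

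Stem-loops were searched as a loop of pyrimidine, purine, pyrimidine closed by at least 5 Watson-Crick pairs, a description of the kind of hairpin that Regnase-1 and the Roquin proteins bind. At least 1 was found in 4 of the 10 regulators (Zc3h12a, Rc3h1, Rc3h2 and Hnrnpd) and in 25.7% of the tested genes. By 3′ UTR length, one was found in 17.5% of those in the 3′ UTR length class of Zc3h12a and in 51.4% of those in the longest class, where Rc3h1, Rc3h2 and Hnrnpd lie. The 3 in Zc3h12a are shown because Regnase-1 is known to act on its own mRNA, and 1 each of Rc3h1 and Rc3h2 because their 15 bases of stem and loop are identical. Capitals mark stem and loop.
Zc3h12a, base 196 after the stop codon, chr4:125119066-125119086, minus strand: gttGATACACATTGTATCtct
Zc3h12a, base 378, chr4:125118884-125118904, minus strand: gttAGGCACCATGTGCCTgct
Zc3h12a, base 601, chr4:125118659-125118681, minus strand: gagATTTAAATATTTTAAATgaa
Rc3h1, chr1:160971657-160971677, plus strand: aatAACTTCTGTGAAGTTgcc
Rc3h2, chr2:37373806-37373826, minus strand: attAACTTCTGTGAAGTTgtt

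**Figure D1:**
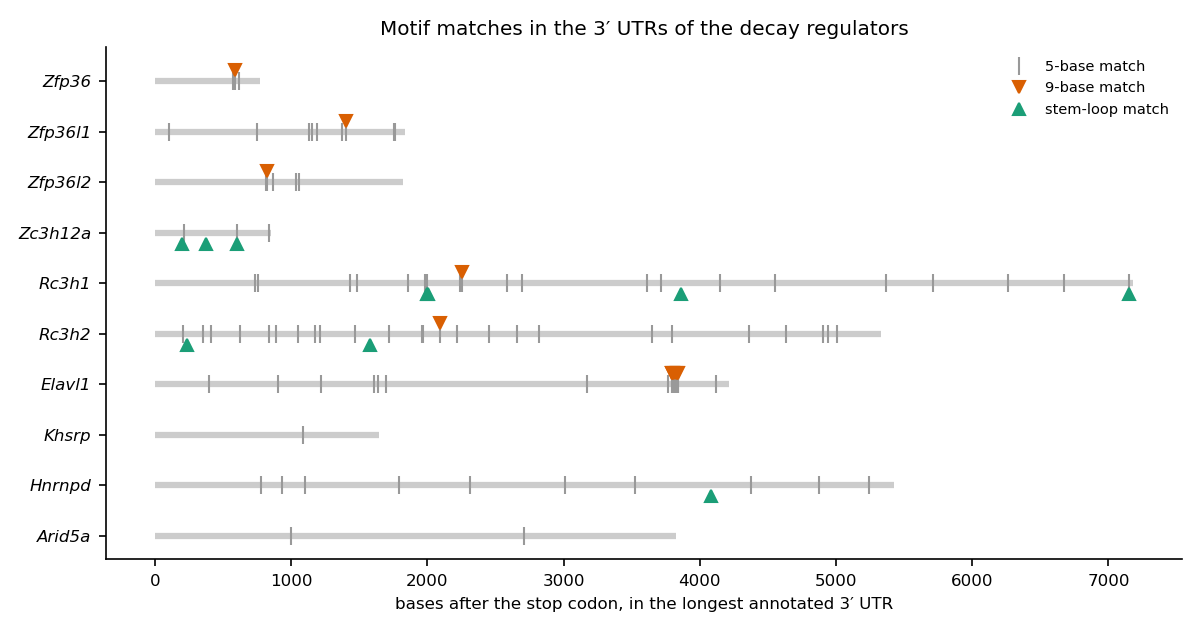
Positions of ATTTA (5-base match, grey ticks), TTATTTATT (9-base match, triangles pointing down) and stem-loop matches (triangles pointing up) in the longest annotated 3′ UTR of each regulator, in bases after the stop codon. The tristetraprolin family has 1 9-base match each, Elavl1 has its 8 matches in 1 cluster, and Zc3h12a has 3 stem-loops within 856 bases.

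Of the 10 regulators, 2 were called, beside the 10.9% of all genes tested. Zfp36 was higher and Arid5a was lower with Yoda1, and the other 8 did not pass the threshold. At an unadjusted p under 0.05 only Hnrnpd was added to these 2. The same 2 were the regulators whose groups did not overlap, an ordering seen in 15.5% of all genes tested. The median log2 fold change over the 10 was 0.013, beside -0.0053 over all genes tested. In bulk samples, a change in the share of cells that express a gene and a change in its RNA per cell cannot be told apart.

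**Figure D2:**
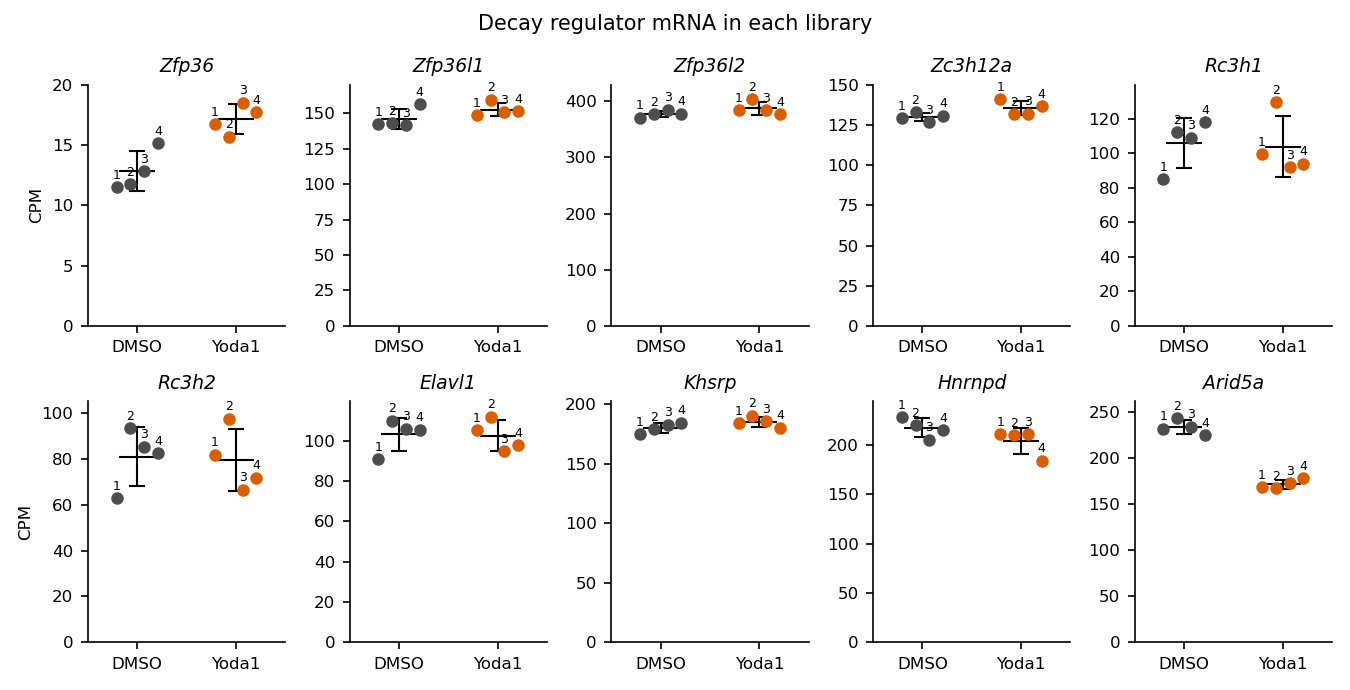
CPM of each regulator in each library (points, numbered by replicate), with the mean and SD of the 4 libraries of each group; every y axis starts at 0. The Yoda1 points lie above all DMSO points for Zfp36 and below them for Arid5a, and the groups overlap in the other 8 panels.

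Zfp36 (chr7:28376784-28380253, minus strand, 2 exons) encodes tristetraprolin, which binds AU-rich elements and brings the mRNA to deadenylation. It was counted at 11.5, 11.8, 12.8 and 15.1 CPM in DMSO libraries 1 to 4 and at 16.7, 15.7, 18.5 and 17.7 CPM in Yoda1 libraries 1 to 4. Every Yoda1 library lay above every DMSO library, although DMSO 4 and Yoda1 2 were close to each other. The DMSO mean was 12.8 ± 1.66 CPM and the Yoda1 mean 17.2 ± 1.22 CPM (SD, n = 4 each). The log2 fold change was 0.43 (standard error 0.088, 95% interval 0.25 to 0.61, edgeR adjusted p = 0.00138), a 1.35-fold increase. These levels rest on 184 to 345 counts per library, and Zfp36 ranked at the 35.2 percentile of the tested genes by mean level.

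Zfp36l1 and Zfp36l2 encode the other members of the family expressed in these cells, which bind the same element. Zfp36l1 was at 142, 143, 142 and 156 CPM with DMSO and at 149, 160, 151 and 151 CPM with Yoda1, so that DMSO 4 lay among the Yoda1 libraries. Its log2 fold change was 0.066 (95% interval -0.015 to 0.15, edgeR adjusted p = 0.308). Zfp36l2 was at 371, 377, 385 and 378 CPM with DMSO and at 384, 404, 384 and 377 CPM with Yoda1, and the groups overlapped. Its log2 fold change was 0.036 (95% interval -0.034 to 0.11, edgeR adjusted p = 0.559), so the interval leaves room for a rise of at most 1.08-fold.

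Within the family, Zfp36 was the minor transcript. Per kilobase of the principal annotated transcript, Zfp36 made 2.86% ± 0.308 of the 3 family mRNAs in the vehicle group and 3.69% ± 0.333 after Yoda1 (SD, n = 4 each). Zfp36l1 made 30.4% ± 0.968 and 30.6% ± 0.301, and Zfp36l2 made 66.7% ± 1.21 and 65.7% ± 0.396. The log2 ratio of Zfp36 to Zfp36l1 counts was -3.63, -3.60, -3.46 and -3.37 in DMSO libraries 1 to 4 and -3.15, -3.34, -3.02 and -3.09 in Yoda1 libraries 1 to 4, a difference of 0.36 with no overlap. This ratio does not depend on the scaling of the libraries. In a two-sided exact permutation test its p was 0.0286, the smallest p that 4 samples against 4 allow. After adjustment over the 4 ratios examined it was 0.114, which did not pass the correction. A ratio that alone reached the smallest p could not pass this adjustment. The ratio of Zfp36 to Zfp36l2 differed by 0.39 (exact permutation p = 0.0571, adjusted p = 0.114), with the highest DMSO value (-4.64) above the lowest Yoda1 value (-4.68). The ratio of Zfp36l1 to Zfp36l2 differed by 0.030 (exact permutation p = 0.486, adjusted p = 0.648).

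Arid5a (chr1:36307733-36324029, plus strand, 7 exons), which binds stem-loops and opposes Regnase-1, moved the other way. It was at 232, 243, 234 and 225 CPM in DMSO libraries 1 to 4 and at 168, 168, 172 and 178 CPM in Yoda1 libraries 1 to 4. The gap between the groups was wider than the spread within either of them. The DMSO mean was 233 ± 7.44 CPM and the Yoda1 mean 171 ± 4.95 CPM (SD, n = 4 each), and the log2 fold change was -0.44 (standard error 0.037, 95% interval -0.52 to -0.37, edgeR adjusted p = 5.0e-10). The level fell by 26.5%. Arid5a was counted with 2082 to 4441 counts per library and stood at the 91.8 percentile of the tested genes by mean level.

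Zc3h12a encodes Regnase-1, the ribonuclease that Arid5a opposes. It was at 129, 133, 127 and 131 CPM with DMSO and at 141, 132, 132 and 137 CPM with Yoda1. The groups overlapped, since DMSO 2 lay above Yoda1 2 and 3, and the log2 fold change was 0.059 (standard error 0.038, 95% interval -0.018 to 0.14, edgeR adjusted p = 0.346). A rise of more than 1.10-fold lies outside this interval.

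Rc3h1 and Rc3h2 encode the Roquin paralogs, which bind stem-loops and bring in the CCR4-NOT deadenylase. Rc3h1 was at 85.0, 112, 109 and 118 CPM with DMSO and at 99.4, 130, 92.0 and 94.1 CPM with Yoda1. Rc3h2 was at 62.8, 93.3, 85.2 and 82.4 CPM with DMSO and at 81.7, 97.4, 66.5 and 71.7 CPM with Yoda1. Both genes were lowest in DMSO 1 and highest in Yoda1 2, and both were low in Yoda1 3 and 4, so the spread lay within the groups and the groups overlapped. The log2 fold changes were -0.029 for Rc3h1 (95% interval -0.40 to 0.34, edgeR adjusted p = 0.936) and -0.029 for Rc3h2 (95% interval -0.43 to 0.38, edgeR adjusted p = 0.941), intervals that reach up to increases of 1.27-fold and 1.30-fold. Leaving out Yoda1 2 gave -0.16 and -0.15, and leaving out Yoda1 3 gave 0.025 and 0.044, so a single library set the sign. The log2 ratio of Rc3h1 to Rc3h2 counts differed little between the group means, at 0.40 ± 0.11 in the vehicle group and 0.39 ± 0.078 after Yoda1 (SD, n = 4 each), a difference of -0.0065 (two-sided exact permutation p = 0.943, adjusted p = 0.943).

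Elavl1 encodes HuR, which binds AU-rich elements and stabilizes mRNAs. It was at 90.9, 110, 106 and 106 CPM with DMSO and at 105, 112, 94.8 and 97.8 CPM with Yoda1, with the lowest value again in DMSO 1 and the next in Yoda1 3. Its log2 fold change was -0.011 (95% interval -0.14 to 0.11, edgeR adjusted p = 0.937). Exons of Elavl1 overlap 204 bases of Ccl25 on the opposite strand, and Ccl25 had at most 1.05 CPM in any library.

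The libraries in which Rc3h1, Rc3h2 and Elavl1 were low were those in which long mRNAs in general were low. A long-transcript score was taken for each library as the median log2 deviation from the 8-library mean over the 2268 tested genes with the longest principal transcripts (over 4931 bases). It was -0.068, 0.0064, 0.042 and 0.033 in DMSO libraries 1 to 4 and 0.0055, 0.059, -0.050 and -0.012 in Yoda1 libraries 1 to 4, so DMSO 1 and Yoda1 3 were lowest and Yoda1 2 was highest. The score did not divide the groups. Rc3h1 (11006 bases), Rc3h2 (8799 bases), Hnrnpd (6811 bases) and Elavl1 (5743 bases) are 4 of these genes. Hnrnpd did not follow the score, and was highest in DMSO 1. Within the DMSO group the SD was 13.7% of the mean for Rc3h1, 16.0% for Rc3h2 and 8.13% for Elavl1, against a median of 5.18% over the 1232 of the long genes with at least 500 counts in every library and 3.85% over 3515 shorter ones. What made long mRNAs vary between the libraries was not tested.

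**Figure D3:**
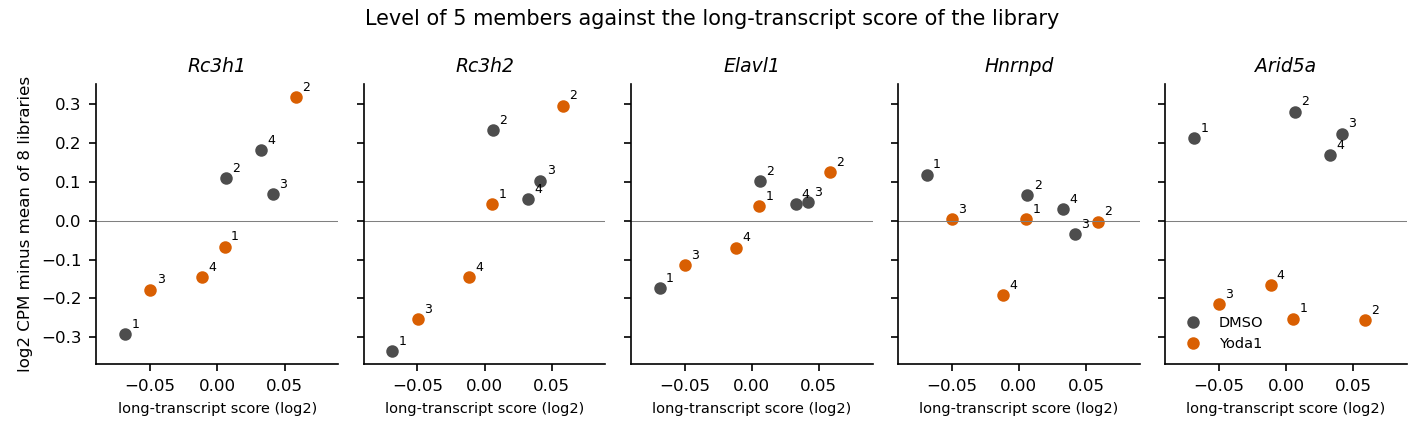
Level of Rc3h1, Rc3h2, Elavl1, Hnrnpd and Arid5a in each library (log2 CPM minus the mean of the 8 libraries, numbered by replicate) against the long-transcript score of that library. Rc3h1, Rc3h2 and Elavl1 are lowest in DMSO 1, which has the lowest score, while Arid5a separates by treatment at every score.

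With the score as a covariate, an alternative added after seeing the data, the standard error fell from 0.15 to 0.041 for Rc3h1, from 0.17 to 0.062 for Rc3h2 and from 0.059 to 0.036 for Elavl1. The log2 fold changes were then -0.024 (95% interval -0.11 to 0.059), -0.027 (95% interval -0.16 to 0.11) and -0.0084 (95% interval -0.080 to 0.063), and their edgeR adjusted p-values lay between 0.748 and 0.909. The score was computed from a gene set that holds these 3 genes among 2268. Zfp36 (log2 fold change 0.43, edgeR adjusted p = 1.1e-04) and Arid5a (-0.44, edgeR adjusted p = 6.8e-19) were still the only regulators called.

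**Figure D4:**
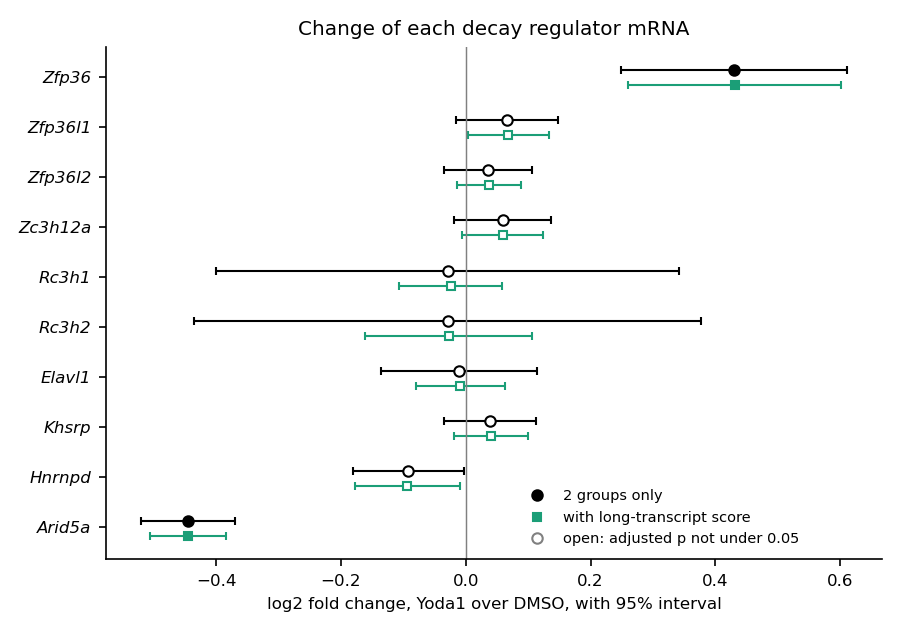
Log2 fold change of each regulator with its 95% interval, from the comparison of the 2 groups alone (circles) and with the long-transcript score as a covariate (squares); filled symbols passed an adjusted p of 0.05. Zfp36 and Arid5a stand on opposite sides of 0, and the wide intervals of Rc3h1 and Rc3h2 narrow with the covariate.

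Khsrp and Hnrnpd encode KSRP and AUF1, which bind AU-rich elements and mostly promote decay. Khsrp was at 175, 179, 183 and 185 CPM with DMSO and at 184, 191, 186 and 180 CPM with Yoda1, and the groups overlapped. Its log2 fold change was 0.040 (95% interval -0.034 to 0.11, edgeR adjusted p = 0.543). Hnrnpd was at 228, 220, 205 and 215 CPM with DMSO and at 211, 210, 211 and 184 CPM with Yoda1. The lowest value by far was Yoda1 4, and DMSO 3 lay below the other Yoda1 libraries. Its log2 fold change was -0.092 (95% interval -0.18 to -0.0035), and the edgeR adjusted p of 0.180 did not pass the threshold.

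The 10 mRNAs differed widely in level per unit of length. In DMSO libraries, Zfp36l2 was highest at 107 ± 1.60 CPM per kilobase of principal transcript (SD, n = 4), followed by Arid5a at 50.3 ± 1.60, Zfp36l1 at 48.8 ± 2.34, Zc3h12a at 47.2 ± 0.926 and Khsrp at 45.3 ± 1.10. Neighbours among these last 4 overlapped in their library ranges and cannot be ordered. Hnrnpd followed at 31.9 ± 1.42 and Elavl1 at 17.97 ± 1.46, each clear of its neighbours. Rc3h1 at 9.64 ± 1.32 and Rc3h2 at 9.20 ± 1.47 overlapped, and Zfp36 was lowest at 4.59 ± 0.593. With Yoda1, Zfp36 reached 6.15 ± 0.439 CPM per kilobase and Arid5a came down to 37.0 ± 1.07, below the DMSO levels of Zfp36l1, Zc3h12a and Khsrp. Exons of Zfp36, Zfp36l1, Zfp36l2, Khsrp and Hnrnpd overlap annotated genes on the opposite strand that the count files do not list, the longest stretch being 1672 bases of Gm26669 for Zfp36l1. The sources used here do not say whether the counting used strand, so reads of such partners could not be told apart from those of the regulators.

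The proteins that the regulators work with were examined as fixed lists, chosen with earlier results of these data known. Counts of these lists are therefore not independent evidence of a direction. Over 112 tested genes of deadenylation, decapping, exosome, nonsense-mediated decay, other RNA-binding proteins and upstream signalling, 16 were higher and 2 were lower, or 14.3% higher against the 6.04% of all genes tested, with a median log2 fold change of 0.024. In the deadenylation list, 3 of 18 were higher and 1 was lower. The 3 were Btg2 (log2 fold change 0.28, edgeR adjusted p = 2.1e-05), Tob2 (0.19, adjusted p = 0.00240) and Btg1 (0.16, adjusted p = 0.00212), antiproliferative adaptors that bind the CCR4-NOT deadenylases. Cnot6, a deadenylase subunit, was lower (log2 fold change -0.13, edgeR adjusted p = 0.0343) with groups that overlapped, and its call was lost without DMSO 2, 3 or 4 or Yoda1 1, 3 or 4 (adjusted p 0.0622 to 0.128), and with DESeq2 (0.0563). No gene of the decapping and 5′-to-3′ decay list (18 tested, median log2 fold change 0.052) or of the exosome list (18 tested, median -0.0080) was called by edgeR, DESeq2 or limma-voom, and at an unadjusted edgeR p under 0.05 there were 2 in each. Of the decapping list, the decapping activator gene Dcp1a was called higher without DMSO 3 (adjusted p = 0.0489) and when genes of low counts were kept (0.0422), and Lsm4, of the Lsm ring that binds deadenylated ends, lower with library size only (0.0402) and upper-quartile factors (0.0289). With the long-transcript score as a covariate 3 were called (both of these and Ddx6), all named after their values were seen. In the nonsense-mediated decay list, 1 of 10 was called, the endonuclease Smg6 (0.16, edgeR adjusted p = 0.0310). The call of Smg6 was lost without DMSO 2 or 4 or Yoda1 3 or 4 (adjusted p 0.0782 to 0.109), without DMSO 1 and Yoda1 3 together (0.137), and with library size only (0.0609), upper-quartile factors (0.0837) and DESeq2 (0.0539). Upf1, the helicase of this pathway, was called lower without DMSO 1 (adjusted p = 0.0144) and without DMSO 1 and Yoda1 3 together (0.0190). When genes of low counts were kept, the kinase gene Smg1 was called higher (0.00627). With the long-transcript score as a covariate, Smg1 (1.0e-04), Smg5 (0.0264) and Smg6 (0.00621) were called higher. Upf1, Smg1 and Smg5 were named after their values were seen.

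Among the other RNA-binding proteins, 5 of 27 tested were higher and 1 was lower, beside 6.04% and 4.84% of all genes tested. The cytoplasmic polyadenylation element-binding genes Cpeb2 (log2 fold change 0.21, edgeR adjusted p = 0.0127) and Cpeb4 (0.16, adjusted p = 0.0285), the ribonuclease gene N4bp1 (0.15, adjusted p = 0.0118) and the poly(C)-binding gene Pcbp2 (0.15, adjusted p = 0.00426) were among the higher ones. The call of Cpeb2 was lost without DMSO 2 (adjusted p = 0.0735), and that of Cpeb4 without DMSO 1 or 3 or Yoda1 1, 2 or 4 (adjusted p 0.0524 to 0.0983), without DMSO 1 and Yoda1 3 together (0.0553), and with library size only (0.0585) and upper-quartile factors (0.0763). Celf2, whose product binds GU-rich elements, was lower (-0.18, edgeR adjusted p = 0.00866). The relatives of the regulators Zfp36l3, Elavl2, Elavl3 and Elavl4 had at most 11 counts in any library and were not tested. Of the Zc3h12a relatives, named after their values were seen, Zc3h12c averaged 76.1 CPM with DMSO and 80.8 CPM with Yoda1 (edgeR adjusted p = 0.737). Zc3h12d averaged 43.3 and 38.6 CPM (log2 fold change -0.16, edgeR adjusted p = 0.0531). Zc3h12b had at most 25 counts in any library (edgeR adjusted p = 0.275). None of these Zc3h12a relatives was called.

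The upstream list holds the kinases, phosphatases and adaptors that modify the regulators. By edgeR, 7 of its 21 tested genes were higher and none was lower, beside 6.04% and 4.84% of all genes tested. The other 14 did not pass, and 2 of them were lower at an unadjusted p under 0.05. Dusp1, the phosphatase that turns off p38, rose from 16.5 ± 1.72 to 21.3 ± 1.56 CPM (SD, n = 4 each; log2 fold change 0.38, edgeR adjusted p = 0.00189). Mapkapk3, a p38-activated kinase of the group that phosphorylates tristetraprolin, rose by 0.22 on the log2 scale (edgeR adjusted p = 4.7e-05). Malt1, the protease that cleaves Regnase-1 and the Roquin proteins, rose by 0.19 (edgeR adjusted p = 0.0123), and Tank, an adaptor of TRAF proteins, by 0.24 (edgeR adjusted p = 7.4e-04). Without DMSO 2 or without Yoda1 1 the call of Malt1 was lost (adjusted p = 0.0641 and 0.0627). These are mRNA levels, and neither phosphorylation nor cleavage of the regulators was measured here.

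mRNAs known to be bound by the regulators were examined in the same way. The lists were put together from general knowledge, with earlier results of these libraries known, and several of their genes were already known to move here, so their counts are not independent evidence of a direction. Of 27 tested mRNAs with AU-rich elements, 14 were higher and 1 was lower with a median log2 fold change of 0.15. Of 11 tested stem-loop targets, 8 were higher and 1 was lower with a median of 0.27. The lists share 4 tested genes, all of them higher, so these counts overlap. Over both lists, 18 of 34 tested genes were higher and 2 were lower. Of all genes tested, 6.04% were higher and 4.84% lower, with a median of -0.0053. The largest increases among AU-rich targets were those of the chemokines Ccl3 (log2 fold change 2.01) and Ccl4 (2.01), the cytokine Ifng (1.35) and the chemokine Cxcl2 (0.77), each with an edgeR adjusted p of at most 4.7e-05. Ccnd1, a cell cycle cyclin, was lower (-0.81, edgeR adjusted p = 3.6e-04). Counts per library were low for Ccnd1 (32 to 94) and Cxcl2 (66 to 170). Il13 was higher by 0.30 and Il5 by 0.14, beside Csf2 at 0.35 and Tnf at 0.16. Exons of Il5, Csf2 and Ccnd1, and above of Tob2, Smg6, Cpeb2, Pcbp2, Celf2 and Dusp1, overlap genes on the opposite strand as well, and those of Ifng and Pcbp2 a gene on the same strand.

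Among the stem-loop targets, Rel (log2 fold change 0.78, edgeR adjusted p = 2.3e-09), Ctla4 (0.67, adjusted p = 1.6e-06), Ier3 (0.60, adjusted p = 2.4e-05) and Ptgs2 (0.56, adjusted p = 2.3e-04) were higher. Tnfrsf4, which encodes OX40, was at 49.6, 53.4, 54.4 and 48.2 CPM with DMSO and at 58.5, 62.6, 67.1 and 60.2 CPM with Yoda1 (log2 fold change 0.27, edgeR adjusted p = 5.9e-04). Icos, a costimulatory receptor and a target of the Roquin proteins and of Regnase-1, was the exception, at 243, 253, 252 and 247 CPM with DMSO and at 219, 223, 213 and 222 CPM with Yoda1 (-0.18, edgeR adjusted p = 6.0e-04). The groups of both genes did not overlap, in opposite directions. Il6, the mRNA on which Arid5a is best known to act, was named after its values were seen and was higher (log2 fold change 0.52, edgeR adjusted p = 9.3e-06).

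In the libraries in which Ifng and the chemokines were higher, the natural killer and ILC1 marker list summed to 501 to 530 CPM, against 437 to 492 CPM with DMSO. Prf1 made most of this sum, and Tbx21 (log2 fold change 0.62, edgeR adjusted p = 3.9e-07), Eomes (0.21, adjusted p = 0.0111) and Prf1 (0.14, adjusted p = 0.0174) were called higher. The receptor genes of the list, Ncr1 (4.42 ± 1.11 with DMSO and 3.70 ± 0.781 CPM with Yoda1, SD, n = 4 each), Klrb1c (6.06 ± 0.603 and 5.28 ± 0.413 CPM) and Klre1 (4.52 ± 0.740 and 4.85 ± 0.606 CPM), were not called. The part of other cells in the target values was not tested.

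**Figure D5:**
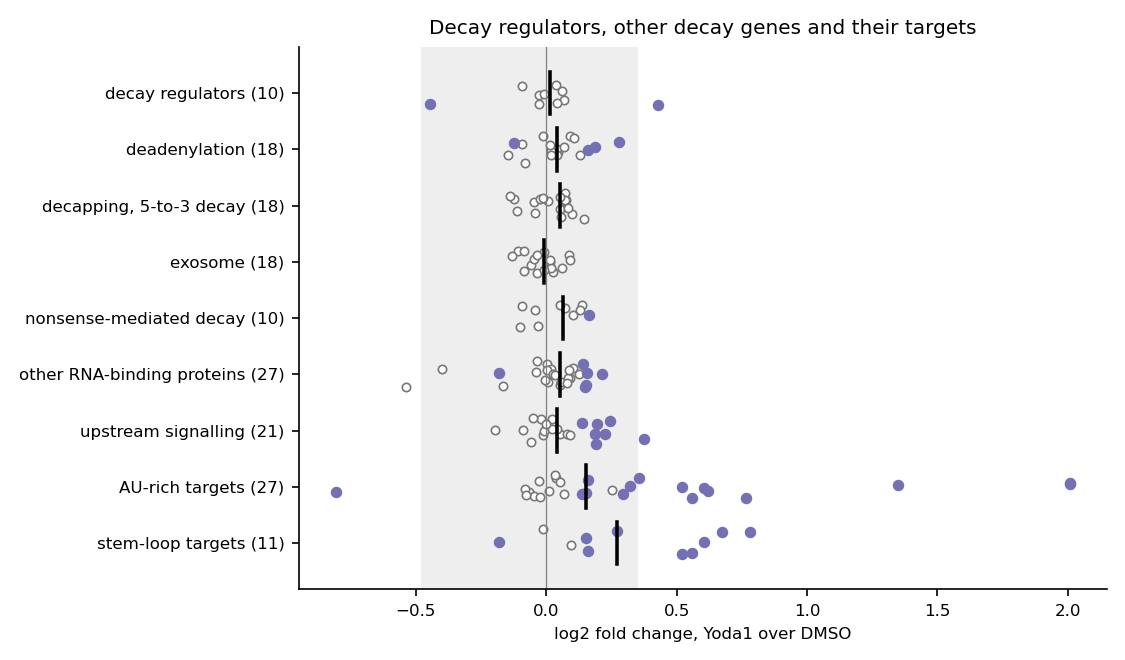
Log2 fold change of every tested gene of each list, with the number of genes in brackets; filled points passed an adjusted p of 0.05, black bars mark list medians, and the grey band holds the middle 95% of all genes tested (-0.47 to 0.35). Among the decay regulators, Zfp36 lies above the band and Arid5a within it near its lower edge, while the target lists reach past 0.35.

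The 9-base element and the stem-loops were also read in the target mRNAs. The element was found in 13 of the 34 tested targets of both lists and a stem-loop in 15. Some targets of either direction are shown, with the matched bases in capitals, for comparison with the sites of the regulators.
Il13, 9-base element, chr11:53631743-53631767, minus strand: tcttgatcTTATTTATTatggttgt
Csf2, 1 of 4 overlapping copies, chr11:54247323-54247347, minus strand: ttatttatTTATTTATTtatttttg
Tnf, 1 of 5 copies, chr17:35199684-35199708, minus strand: attatttaTTATTTATTtattattt
Tnf, stem-loop, chr17:35199582-35199602, minus strand: catGTTTTCTGTGAAAACgga
Rel, stem-loop, chr11:23742025-23742045, minus strand: tgtAATGGCTATGCCATTggg
Tnfrsf4, stem-loop, chr4:156016538-156016558, plus strand: tatGTATGCTATGCATACtac
Icos, stem-loop, chr1:60999828-60999848, plus strand: cctATTTCCTATGGAAATgaa

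The calls were counted for the targets with and without each feature. Of the 13 with the 9-base element, 7 were higher and none was lower (median log2 fold change 0.16), and of the 21 without it, 11 were higher and 2 were lower (median 0.14). Of the 15 with a stem-loop, 9 were higher and 1 was lower (median 0.25), and of the 19 without one, 9 were higher and 1 was lower (median 0.068). Over all tested genes with an annotated 3′ UTR, 7.45% of the 2914 with a stem-loop were higher and 4.94% lower. Of the 8414 without one, 5.89% were higher and 4.93% lower. The median 3′ UTR was 2496 bases with a stem-loop and 976 bases without one. Icos, which was lower, had 3 stem-loops, and Tnfrsf4, which was higher, had 1.

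Over all genes, the share called higher was 10.4% of the 1021 tested genes with the 9-base element and 5.89% of the 10307 without it. The shares called lower were 5.19% and 4.91%. The median 3′ UTR of the first set was 2699 bases and that of the second 1169 bases. Within the 4 classes of 3′ UTR length, the share called higher with and without the element was 11.3% and 4.29% in the shortest, 17.6% and 6.74% in the second, 10.7% and 5.88% in the third, and 8.18% and 6.84% in the longest. This difference had the same sign in each class and was smallest in that of the longest 3′ UTRs, where Rc3h1, Rc3h2 and Elavl1 lie. In the shortest class the share with the element rests on 7 of 62 genes. In the same order of classes, the share called lower with and without the element was 6.45% and 3.82%, 4.73% and 4.28%, 6.51% and 6.23%, and 4.55% and 5.48%. Median log2 fold changes stayed small in both sets, at 0.014 with the element and -0.0053 without it. Of the regulators with the element, Zfp36 was called higher and Zfp36l1, Zfp36l2, Rc3h1, Rc3h2 and Elavl1 were not called, while Arid5a, which was lower, had neither the element nor a stem-loop in its annotated 3′ UTR of 3826 bases. These counts describe annotated sequence and were not tested against chance.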

How the data were processed

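Bulk mRNA of 8 samples, 4 per group as the sample labels name them, was sequenced on an Illumina sequencer after poly(A) selection and a directional library kit. For every library the authors deposited 1 file of raw read counts, whole numbers listed by gene symbol. Read quality control and trimming were done with FastQC and FASTX Trimmer and mapping with BBMap, followed by Cufflinks and Cuffdiff, per the study's methods, while TopHat and mm10 are named in the submitters' processing notes. Tool versions, annotation and whether the counting used strand are not given in the sources used here. Library totals of 12438009 to 19534653 counts limit precision by counting error, among the regulators most for Zfp36.

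From the counts, genes were filtered with filterByExpr (minimum count 10, minimum total 15), scaled with TMM and compared in R 4.3.3 with edgeR 4.0.16 (quasi-likelihood, robust, Benjamini-Hochberg at 0.05). A standard error is the absolute log2 fold change over the root of F, and 95% intervals use the t distribution of that fit. Ratios of paralogs used counts plus 0.5 and all 70 assignments of samples. Positions, lengths and 3′ UTRs were read from the GENCODE M21 annotation of GRCm38, which holds 95.5% of the symbols under the same name. Stem-loops and motifs were searched on the transcript strand. Alternatives were DESeq2 1.42.0, limma-voom (3.58.1), upper-quartile factors, library size only, no filter, at least 10 counts in every library, the replicate number as a block, each library left out in turn and, chosen after seeing the data, the long-transcript score as a covariate and leaving out DMSO 1 and Yoda1 3 together. The edgeR script was tested on simulated data.

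The regulators and lists were chosen with earlier results of these data known. Genes named are all 10 regulators, of every other list up to the 4 largest changes in each direction past the threshold, and Il5, Il13, Csf2, Tnf, Icos and Tnfrsf4. The files list Cnot9 as Rqcd1 and Mtrex as Skiv2l2.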

Additional observations from a re-analysis of the deposited data

Results flagged for a closer look

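Among 28 sets of 4 values (10 regulators and 4 paralog ratios in both groups), 2 held a library far from the other 3, where chance gives about 1.4. Zfp36l1 in DMSO 4 was at 156 CPM, with the next DMSO library at 143 CPM. Hnrnpd in Yoda1 4 was at 184 CPM, with the next Yoda1 library at 210 CPM. Neither gene was called in any of the 17 alternatives, those without these libraries included.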

How the results depend on the processing

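Zfp36 stayed higher and Arid5a lower, both called, in all 17 alternatives, with log2 fold changes from 0.35 to 0.51 and from -0.48 to -0.42, and none of the other 8 regulators was called in any of them. Hnrnpd came nearest (lowest adjusted p = 0.0567). Rc3h1, Rc3h2 and Elavl1 changed sign among the alternatives and were called in none. The replicate numbers did not pair the samples (correlations of deviations -0.028 to 0.071). With the replicate block, 966 genes were called in place of 1331, both regulators kept their calls, and Il5 (adjusted p = 0.0506), Cnot6 and Cpeb4 lost theirs. With the long-transcript score as a covariate, 2219 genes were called, 1240 higher and 979 lower, and 30 of the decay and upstream genes in place of 18. Upper-quartile factors gave 958 lower genes. Leaving out each library gave 367 to 677 lower genes against 592. The count was 367 without DMSO 2, 374 without Yoda1 4 and 677 without DMSO 1. The cause of these shifts was not tested. Of 48 genes followed by name, 7 lost their call in at least 1 alternative and none reversed. The paralog ratios passed the correction in no alternative, with 0.0286 as the smallest unadjusted p of 4 samples against 4. A ratio that alone reached this p could not pass. With the replicate block the smallest possible p of the exact sign-flip test was 0.125, so no ratio could pass there. The share of genes with the motif called higher was 9.04% with the 7-base motif and 10.7% with the longest 3′ UTR of a gene, beside 10.4%. Among the regulators, depth limits Zfp36 most, with 184 to 345 counts per library.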
